A study of Mus musculus with 4 samples.

Results

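The immediate early genes described here are *Fos*, *Fosb*, *Jun*, *Junb*, *Atf3*, *Egr1*, *Nr4a1*, *Ier2*, *Zfp36* and *Dusp1*. They were chosen by name as a functional family, with earlier results of these data known. All 10 had a row among the 31053 genes of each unique molecular identifier (UMI) matrix. Droplet-based 3′ scRNA-seq was performed on cells sorted for EPCAM from P2-*Runx1*:RFP mice on an ICR (CD-1) background, in which the P2 promoter of *Runx1* drives a red fluorescent protein (RFP). All adult males carried this reporter and were over 8 weeks old, and their prostates were dissected into lobes, the anterior (AP), the dorsolateral (DLP) and the ventral one (VP), pooled over several mice and sorted into RFP+ and RFP- cells. Runs 1, 2 and 3 held intact mice, run 2 also held mice castrated for over 4 weeks, by lobe, and run 1 held castrated cells of pooled lobes, of which only 18 passed quality control. The DLP RFP+ sample of intact mice was not recovered in runs 1 and 2. A separate library held urogenital sinus explants, the embryonic tissue from which the prostate buds, taken at E15.5, cultured with 10 µM dihydrotestosterone and pooled at days 0, 1, 3 and 6.

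Immediate early genes are transcribed within minutes of a stimulus, without the need for new protein synthesis, and their mRNAs are short-lived. *Fos* and *Fosb* encode FOS subunits and *Jun* and *Junb* encode JUN subunits of the dimeric transcription factor AP-1, and *Atf3* encodes a related bZIP factor. *Egr1* encodes a zinc finger transcription factor, *Nr4a1* an orphan nuclear receptor and *Ier2* a small nuclear protein. *Zfp36* and *Dusp1* act as brakes: ZFP36 binds AU-rich mRNAs and promotes their decay, and DUSP1 is a phosphatase that inactivates MAP kinases. Enzymatic dissociation of a tissue can itself switch these genes on. Every cell here was dissociated, no undissociated sample was measured, and RNA present in the tissue and RNA made during dissociation cannot be told apart. The digestion given for adult prostates was longer than that for explants, so levels were not compared between them.

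After assignment to 1 sorted population, 9889 cells were kept, 4691 from adults and 5198 from explants. The median UMI count per assigned cell lay between 9750.0 and 14785 over the 4 libraries, and pairs of libraries shared at most 6 cell barcodes. Adult cells were clustered without the immediate early genes, and by marker genes 1966 were basal-like, 2013 luminal-like and 712 of other kinds. Basal markers (*Krt5*, *Krt14*, *Trp63* and 4 others) summed to between 10688 and 12593 UMIs per 1000000 UMIs of the sum (CPM) in basal-like cells of the 3 runs and to between 257 and 1377 CPM in luminal-like cells. The luminal-like cells were further split into 5 clusters named after the markers of the study, from Lum-A to Lum-E, and a cluster of 117 cells led by *Ang4*, *Ang5* and *Tff3* that was left unnamed. Its leading genes included *Crym*, which the paper gives as the marker of its Lum-F cluster. The paper describes Lum-F as mainly castrated and mainly VP cells, and 106 of the 117 cells were castrated VP RFP+ cells of run 2. The naming rule used here did not assign that name. Among the sorted cells there were also 384 hematopoietic-like, 184 endothelial-like and 110 fibroblast-like cells. The VP RFP- luminal-like cells of run 3 stood apart, with a median mitochondrial share of 0.349% against at least 1.91% in every other intact basal-like or luminal-like population of 10 cells or more.

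In the GRCm38 annotation the genes placed here lie on several chromosomes, with *Ier2* and *Junb* close together on chromosome 8. *Fos* lies on chromosome 12 (85473890 to 85477273, plus strand), *Fosb* on chromosome 7 (19302696 to 19310051, minus strand) and *Zfp36* on the same chromosome (28376784 to 28380253, minus strand). *Jun* lies on chromosome 4 (95049034 to 95052222, minus strand), *Junb* on chromosome 8 (84974484 to 84978718, minus strand) and *Ier2* on the same chromosome (84661331 to 84662852, minus strand). *Atf3* lies on chromosome 1 (191170296 to 191218039, minus strand), *Nr4a1* on chromosome 15 (101254269 to 101274795, plus strand) and *Dusp1* on chromosome 17 (26505590 to 26562128, minus strand).

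A promoter sequence, from 250 bases before to 50 bases from the start base on, was matched for 8 of the 10 genes in RefSeq (GRCm38.p6). *Ier2* and *Egr1* are only named. The cAMP response element half-site TGACG, searched on both strands and printed as CGTCA where it lies on the opposite strand, occurred in 6 of the 8 promoters and in 20.8% of all 32851 promoters of the same length. The full palindrome TGACGTCA, which contains the half-site, occurred in 1 of the 8 and in 1.79% of all promoters. The AP-1 site TGACTCA occurred in 0 of the 8 and in 5.2% of all, and the TATA box letters TATAAA in 2 of the 8 and in 13.6% of all. The CArG box, the site of serum response factor, was found in the *Zfp36* window alone and in 1.63% of all promoters. These matches are letters in a window and carry no measurement of binding. The promoters of 5 of the 8 genes are printed with matched letters in capitals, and those of *Fosb*, *Jun* and *Junb* are not printed. Printed are *Fos* at chr12:85473640-85473939 (plus strand), *Nr4a1* at chr15:101266596-101266895 (plus strand), *Atf3* at chr1:191183284-191183583, *Zfp36* at chr7:28379179-28379478 and *Dusp1* at chr17:26508423-26508722 (all minus strand).
Fos: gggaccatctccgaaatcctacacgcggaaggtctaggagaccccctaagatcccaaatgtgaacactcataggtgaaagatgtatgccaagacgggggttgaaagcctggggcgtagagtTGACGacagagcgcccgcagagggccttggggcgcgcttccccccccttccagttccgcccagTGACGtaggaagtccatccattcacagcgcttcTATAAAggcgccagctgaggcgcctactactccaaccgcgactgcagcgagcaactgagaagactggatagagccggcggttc
Nr4a1: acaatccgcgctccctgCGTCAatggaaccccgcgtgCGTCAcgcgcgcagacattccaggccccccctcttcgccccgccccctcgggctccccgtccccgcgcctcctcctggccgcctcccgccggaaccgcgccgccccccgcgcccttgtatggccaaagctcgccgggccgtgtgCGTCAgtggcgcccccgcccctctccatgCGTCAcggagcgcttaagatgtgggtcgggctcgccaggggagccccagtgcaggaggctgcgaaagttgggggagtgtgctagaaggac
Atf3: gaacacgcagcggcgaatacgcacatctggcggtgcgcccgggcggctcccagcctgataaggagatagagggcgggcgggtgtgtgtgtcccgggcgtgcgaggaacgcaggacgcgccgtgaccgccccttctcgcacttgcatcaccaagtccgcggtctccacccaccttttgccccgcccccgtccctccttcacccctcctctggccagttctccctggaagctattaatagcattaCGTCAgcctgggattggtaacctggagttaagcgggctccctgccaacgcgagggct
Zfp36: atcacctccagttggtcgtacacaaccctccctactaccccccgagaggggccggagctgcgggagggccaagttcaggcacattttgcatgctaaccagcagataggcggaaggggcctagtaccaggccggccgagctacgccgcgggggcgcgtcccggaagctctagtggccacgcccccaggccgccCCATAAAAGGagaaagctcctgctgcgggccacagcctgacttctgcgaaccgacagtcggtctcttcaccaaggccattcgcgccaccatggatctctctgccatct
Dusp1: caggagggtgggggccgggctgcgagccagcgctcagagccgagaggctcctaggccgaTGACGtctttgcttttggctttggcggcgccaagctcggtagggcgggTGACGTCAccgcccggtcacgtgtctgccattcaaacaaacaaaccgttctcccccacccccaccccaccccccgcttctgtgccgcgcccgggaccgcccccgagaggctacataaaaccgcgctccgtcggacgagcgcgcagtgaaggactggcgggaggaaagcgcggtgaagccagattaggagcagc

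The *Fos* window held 2 half-sites and a TATA box, and the *Nr4a1* window held 4 half-sites, the most of any member. The *Dusp1* window held a half-site and the palindrome, the *Atf3* window a single half-site 7 bases before the start, and the *Zfp36* window the CArG box (CCATAAAAGG) 58 bases before the start. The start is that of the RefSeq window, which for some genes lies inside the extent annotated above: by 34706 bases for *Atf3*, 12577 for *Nr4a1*, 53656 for *Dusp1* and 1025 for *Zfp36*, against 0 for *Fos*. Other starts of these genes were not searched.

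The level of each gene was first described in every kind of intact adult cell, as the normalised CPM of the UMIs summed per run. Because single mRNAs are read at their 3′ end, levels were compared between cells and not between genes. Among AP-1 subunits, *Fos* was highest by median in fibroblast-like cells (2585 to 3683 CPM over 3 runs) and lowest by median in hematopoietic-like cells (611 to 1293), and basal-like cells spanned 587 to 1966. Between these ends the ranges of the Lum-A to Lum-D clusters overlapped. *Fosb* was highest by median in Lum-D cells (528 to 749 CPM), where its range overlapped that of basal-like cells (502 to 674) but not that of Lum-B cells (224 to 470) or Lum-A cells (252 to 288). *Jun* gave little order among epithelial cells. Its ranges in basal-like (1263 to 3178), Lum-A (1324 to 1706) and Lum-B cells (1062 to 1649) all overlapped, with hematopoietic-like cells at the bottom (464 to 824). *Junb* separated the cells more. It reached 2807 to 3379 CPM in fibroblast-like and 1950 to 3669 in basal-like cells, 897 to 1529 in Lum-D cells and 299 to 504 in Lum-B cells, the lowest level of any kind. *Atf3* was at 2336 to 2554 CPM in basal-like cells, overlapping Lum-A cells (1470 to 2610), and again lowest by median in Lum-B cells (442 to 903).

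The other members followed similar orders. *Egr1* was highest by median in endothelial-like cells (1378 and 2410 CPM in 2 runs), overlapped there with fibroblast-like (1416 to 2253) and basal-like cells (992 to 2189), and was low in Lum-A cells (242 to 448). *Nr4a1* was highest by median in basal-like cells (276 to 503 CPM), a range that overlapped Lum-D cells (157 to 285) but lay above Lum-A (92.5 to 111) and Lum-B cells (89.8 to 106). *Ier2* ranges overlapped between nearly all kinds, from 734 to 2052 CPM in basal-like cells to 410 to 941 in hematopoietic-like cells. Both brakes were lower in Lum-B cells than in basal-like or any other luminal-like cells by median, with *Zfp36* at 43.9 to 67.6 CPM and *Dusp1* at 39.5 to 86.8. *Dusp1* was highest by median in fibroblast-like cells (346 to 818 CPM), and *Zfp36* in endothelial-like cells (143 and 523 CPM in 2 runs). Run 1 stood apart: all 10 genes were highest in run 1 in basal-like cells, by 1.06 to 3.32 times over run 2, and 6 of 10 in luminal-like cells. The runs also differed in their mix of lobes and gates. AP RFP+ cells were 209 of 372, 100 of 564 and 145 of 522 luminal-like cells of runs 1, 2 and 3. DLP RFP+ cells were 301 of the 991 basal-like cells of run 3. The part of this mix in the run values was not tested.

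Intact basal-like and luminal-like cells were then compared over the 3 runs, in sums that carry each run's mix of lobes and gates. *Junb*, *Egr1*, *Zfp36* and *Nr4a1* were higher in basal-like cells, and 0 members were lower (edgeR quasi-likelihood test, Benjamini-Hochberg adjusted p under 0.05). Of the 11899 genes tested 23% were higher and 23.2% lower, so the 4 of 10 members that were higher stand against 23% of all genes. The members' median log2 fold change was 0.65, against -0.01 over all genes.

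*Junb* was at 3464, 2188 and 1909 CPM in basal-like cells of runs 1, 2 and 3 and at 1019, 769 and 856 CPM in luminal-like cells. The groups did not overlap, and the log2 fold change was 1.52 ± 0.27 (SE, n = 3 runs; edgeR adjusted p = 0.0031). *Nr4a1* was at 475, 398 and 270 CPM in basal-like and 170, 119 and 109 CPM in luminal-like cells, a log2 fold change of 1.52 ± 0.27 (edgeR adjusted p = 0.0027). Every basal-like value of *Nr4a1* was above every luminal-like one. *Egr1* was at 2067, 1005 and 971 CPM against 595, 405 and 617 CPM, again without overlap (log2 fold change 1.32 ± 0.34, edgeR adjusted p = 0.0148). *Zfp36* was at 375, 220 and 196 CPM against 116, 88.0 and 117 CPM (1.30 ± 0.27, edgeR adjusted p = 0.0061). For each of these 4 genes the excess was seen in 3 of 3 runs.

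For the other AP-1 genes the values were closer. *Atf3* was at 2411, 2268 and 2286 CPM in basal-like and 1548, 1514 and 1841 CPM in luminal-like cells, with no overlap but a log2 fold change of only 0.51 ± 0.18 (edgeR adjusted p = 0.054). *Fos* was at 1856, 560 and 884 CPM in basal-like and 1757, 777 and 1066 CPM in luminal-like cells, with a log2 fold change of -0.13 ± 0.47 (edgeR adjusted p = 0.85). The spread of *Fos* between runs was thus far wider than the difference between compartments. *Jun* differed by 0.41 on the log2 scale (edgeR adjusted p = 0.395), *Fosb* by 0.52 (0.144), *Ier2* by 0.79 (0.179) and *Dusp1* by -0.40 (0.43).

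**Figure D1:**
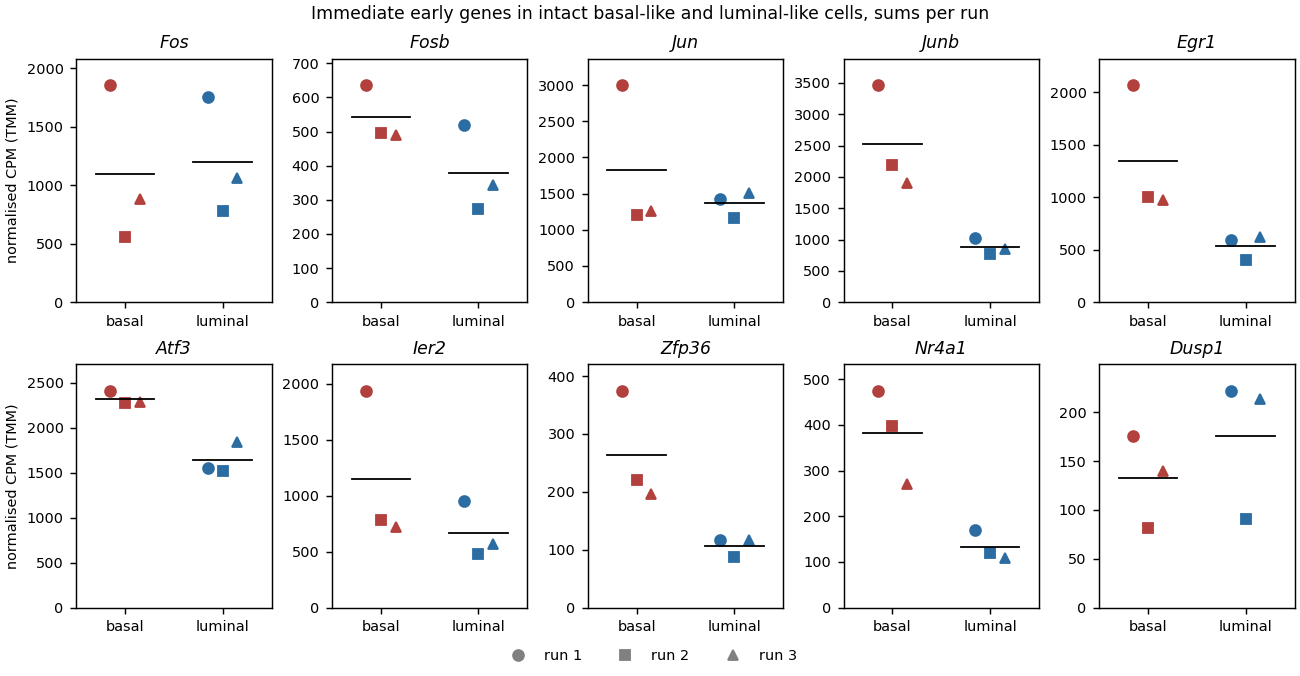
Normalised CPM of the 10 immediate early genes in intact basal-like and luminal-like cells, with 1 panel per gene, 1 point per run and a line at the mean of the 3 runs. *Junb*, *Egr1*, *Zfp36*, *Nr4a1* and *Atf3* do not overlap between the groups, and *Fos* and *Dusp1* do. The share of all genes without overlap was not counted.

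Basal-like and luminal-like cells of a run came from the same pool of mice. With run as a block 28.9% of all genes were higher and 28.6% lower. In that fit 7 members were higher, adding *Fosb* (log2 fold change 0.56, edgeR adjusted p = 0.0085), *Atf3* (0.51, 0.0035) and *Ier2* (0.70, 0.0044), and 1 was lower, *Dusp1* (-0.37, 0.033). The 5 fibroblast markers summed to 6.15 to 10.9 CPM in basal-like and 0.222 to 1.19 CPM in luminal-like sums, the 4 smooth muscle markers to 14.9 to 51.3 against 0.456 to 1.46 CPM and the 4 neuroendocrine markers to 0 to 1.15 against 3.88 to 14.4 CPM, and their part in the result was not tested. Without run 1 the count higher was 6, without run 3 it was 4, and without run 2 only *Junb* was still called. The shares of all genes called in these 3 fits are not given here, so the changes are not read as a result about the members. Depth and composition moved with the compartment: luminal-like sums held 24234 to 32681 UMIs per cell with 41.9% to 57.9% of them in the 50 most abundant genes, and basal-like sums 9852 to 15427 UMIs per cell with 28.4% to 31.8%. With total UMIs as library sizes, the median of all genes moved by 0.55 on the log2 scale, 33.6% of all genes and 5 members were higher, and *Fos* (0.39) and *Dusp1* (0.12) turned to positive values.

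Further gene lists, here and below, were chosen with earlier results of these data known, so they are no independent support. Of 39 further immediate early and AP-1 genes, 29 were higher in basal-like cells and 0 lower, with a median log2 fold change of 1.46. Those of smallest p were *Maff* (3.28), *Csrnp1* (2.19) and *Ier3* (3.00). Of 13 heat shock genes, 4 were higher and 0 lower, among them *Bag3* (1.79), *Dnajb1* (1.83) and *Hspd1* (0.70). Of 5 EGF receptor ligands tested, which signal to these genes through ERK, *Tgfa* and *Hbegf* were higher and *Egf* and *Btc* lower. Of 15 genes of the ERK and SRF pathway, 4 were higher and 3 lower.

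Each lobe was also fitted alone. In AP cells 18.6% of 10658 genes were higher in basal-like cells and 18.3% lower, and 5 members were higher, including *Atf3* (log2 fold change 1.11, edgeR adjusted p = 0.0115). In VP cells 23.4% of 8865 genes were higher and 24.1% lower, and 5 members were higher, including *Fosb* (1.07, edgeR adjusted p = 0.0025), and *Atf3* was at -0.09 (0.81). Whether these compartment differences differed between the lobes was not tested.

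The RFP gates were compared next in the intact AP, within luminal-like cells, since RFP marks *Runx1* expression and the study asks what sets RFP+ luminal cells apart. *Junb*, *Atf3*, *Nr4a1*, *Zfp36* and *Dusp1* were higher in RFP+ cells and 0 members were lower, so both brakes were among those higher. Here 13.2% of the 8834 genes tested were higher and 11.4% lower, against 5 of 10 members higher. The median log2 fold change of the members was 1.03, against -0.01 over all genes.

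*Junb* was at 1578, 1165 and 962 CPM in RFP+ and 461, 547 and 409 CPM in RFP- cells of runs 1, 2 and 3 (log2 fold change 1.39 ± 0.25, n = 3 runs; edgeR adjusted p = 0.0039). *Atf3* was at 2267, 1691 and 1382 CPM against 874, 778 and 561 CPM (1.27 ± 0.27, edgeR adjusted p = 0.0083). In both genes the lowest RFP+ run was well above the highest RFP- run. *Nr4a1* was at 278, 284 and 158 CPM against 90.4, 87.9 and 85.0 CPM (1.45 ± 0.24, edgeR adjusted p = 0.0028). The RFP- values of *Nr4a1* were nearly the same in all 3 runs. *Dusp1* was at 350, 181 and 242 CPM against 129, 81.0 and 70.1 CPM (1.46 ± 0.30, edgeR adjusted p = 0.0072). *Zfp36* was at 166, 118 and 119 CPM against 59.4, 57.6 and 79.0 CPM (1.07 ± 0.21, edgeR adjusted p = 0.0058). None of these 5 genes overlapped between the gates. They are the genes called on the same sums, and the share of all genes without overlap was not counted.

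*Fos* was at 2595, 1078 and 1293 CPM in RFP+ and 1629, 665 and 759 CPM in RFP- cells (0.70, edgeR adjusted p = 0.273). The ratio within runs was steady, 1.59 to 1.70, but run 1 was high in both gates, so the groups overlapped. *Fosb* was at 787, 463 and 572 CPM against 468, 246 and 198 CPM (0.99, edgeR adjusted p = 0.0606). With run as a block 18% of all genes were higher and 17.8% lower, and 7 members were higher, adding *Fos* (0.71, edgeR adjusted p = 0.0017) and *Fosb* (1.04, 0.00056). *Jun* (0.02), *Egr1* (0.13) and *Ier2* (0.40) were not called in either fit. Without run 2, only *Dusp1* was called. The share of all genes called in that fit is not given here, so the drop is not read as a result about the members.

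The gates differed in the kinds of luminal-like cells they held. RFP+ cells were mostly Lum-D (177 of 209, 81 of 100 and 127 of 145 cells in runs 1, 2 and 3) and RFP- cells mostly Lum-B (68 of 77, 121 of 149 and 44 of 47). In run 1, Lum-B cells alone could be set side by side, 24 RFP+ and 68 RFP- cells, without a replicate. All 10 members had a higher CPM in RFP+ cells there, from 1.27 times for *Fosb* to 2.47 times for *Junb*, as had 52.9% of 8717 genes. The median log2 ratio was 0.65 for the members and 0.03 for all genes, and 2 members and 6.86% of all genes were past 2-fold higher. *Junb* in Lum-B cells was at 991 CPM in RFP+ against 402 CPM in RFP- cells (95% exact interval of the ratio 2.19 to 2.77, for counting error only). Markers of other cells also differed between the gates. The 7 basal markers summed to 1198 to 2855 CPM in RFP+ and 350 to 802 CPM in RFP- luminal-like sums, without overlap. The 8 hematopoietic markers summed to 20.7 to 244 CPM in RFP+ sums, with 1 marker at 0 throughout, and to 0 to 8.86 CPM in RFP- sums, with 3 at 0. The 6 endothelial markers went the other way, 10.9 to 17.9 CPM in RFP+ against 26.3 to 41.8 CPM in RFP- sums. The part of such RNA or cells in the result was not tested.

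**Figure D2:**
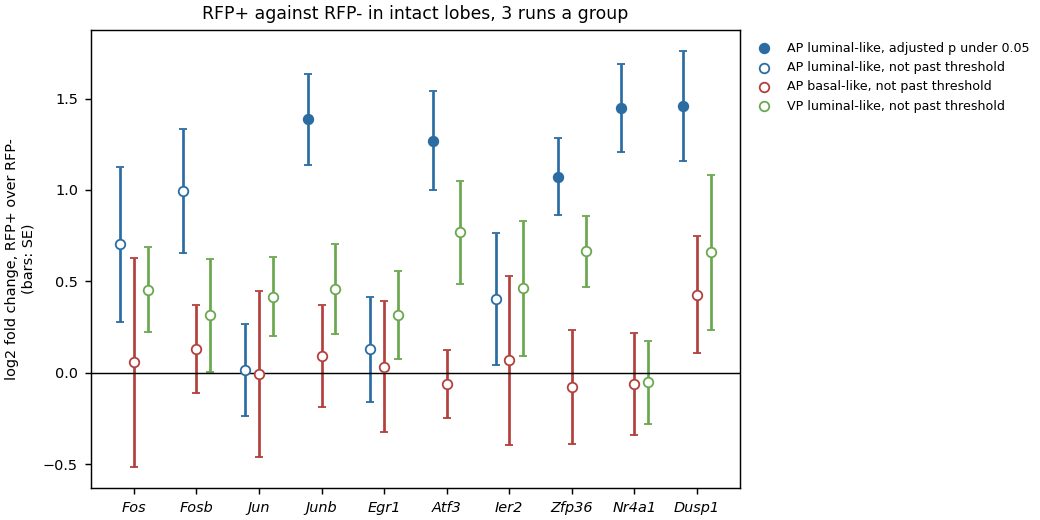
Log2 fold change of RFP+ over RFP- cells for the 10 genes in AP luminal-like, AP basal-like and VP luminal-like cells of intact mice (3 runs a group, bars SE, filled points past the edgeR threshold). *Junb*, *Atf3*, *Zfp36*, *Nr4a1* and *Dusp1* are filled in AP luminal-like cells, between 1.07 and 1.46, and no point is filled in the other 2 groups.

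Among 38 further immediate early and AP-1 genes tested, 21 were higher in AP RFP+ luminal-like cells and 0 lower. Those of smallest p were *Ctgf* (log2 fold change 4.28), *Cebpd* (2.31) and *Arc* (3.26). This list was chosen with earlier results of these data known. The heat shock genes did not share this direction: 1 of 13 was higher, *Hspb1* (0.78), and 2 were lower, *Hsph1* (-1.82) and *Hspe1* (-0.86). Of the 5 EGF receptor ligands tested, *Hbegf* (2.87), *Btc* (3.51) and *Tgfa* (1.22) were higher and *Egf* (-2.43) was lower. Of 13 genes of the ERK and SRF pathway, 1 was higher and 1 lower.

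In basal-like cells of the same lobe the RFP gates gave nearly equal levels. *Junb*, for example, was at 4533, 3265 and 2682 CPM in RFP+ and 4394, 3006 and 2442 CPM in RFP- cells. *Nr4a1* was at 597, 480 and 368 CPM against 635, 544 and 329 CPM. The largest difference was that of *Dusp1*, at 221, 147 and 228 CPM in RFP+ and 197, 79.5 and 164 CPM in RFP- cells (log2 fold change 0.43 ± 0.32). By edgeR 0% of the 8428 genes and 0 members were called, 96 genes had an unadjusted p under 0.05 and none of these was a member, and DESeq2 called 0 members. The fit with run as a block called 0.344% of all genes higher and 0.166% lower and 0 members, with *Dusp1* nearest the threshold (edgeR adjusted p = 0.0549).

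Whether the RFP difference itself differed between luminal-like and basal-like cells of the AP was tested with an interaction term, over 9740 genes of which 4.02% had a larger difference in luminal-like cells and 2.49% a smaller one. *Atf3* (1.29 ± 0.33 on the log2 scale, edgeR adjusted p = 0.0339) and *Nr4a1* (1.46 ± 0.40, edgeR adjusted p = 0.0467) had a larger difference in luminal-like cells. With run as a block 9.05% of all genes had a larger difference and 7.53% a smaller one, and 6 members passed with a larger one, *Fosb*, *Junb*, *Atf3*, *Zfp36*, *Nr4a1* and *Dusp1*. With total UMIs as library sizes 0 passed, and leaving out any 1 run left at most 1. Without run 2, 0 of all genes were called. The shares of all genes in the other fits of this kind are not given here, so these drops are not read as a result about the members.

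In VP luminal-like cells no member was called. The members' median log2 fold change was 0.455, against -0.0029 over all genes. *Fos*, *Jun*, *Atf3*, *Zfp36* and *Dusp1* were higher in RFP+ cells in 3 of 3 runs, *Fos* and *Jun* by only 1.03 and 1.04 times in run 1. *Fosb*, *Junb*, *Egr1* and *Ier2* were higher in 2 of 3 runs, and *Nr4a1* in 1 of 3. The share of all genes higher in 3 of 3 runs was not counted, so these counts are not read as a result. Run 3, whose RFP- cells had the low mitochondrial share, gave the largest ratios of *Fos* (1.91), *Jun* (1.70) and *Atf3* (2.15). Run 1 gave those of *Zfp36* (1.85) and *Dusp1* (1.95). Whether the RFP difference differed between the AP and the VP was not tested. *Atf3* was at 809, 1316 and 1624 CPM in RFP+ and 635, 810 and 755 CPM in RFP- cells (log2 fold change 0.77 ± 0.28, edgeR adjusted p = 0.66). *Zfp36* was at 77.0, 62.2 and 86.8 CPM against 41.6, 51.6 and 47.3 CPM, without overlap (0.66 ± 0.19, edgeR adjusted p = 0.43). *Junb* was at 567, 490 and 598 CPM against 278, 492 and 432 CPM. By edgeR 0.289% of the 7958 genes were called, all lower, and 0 members, of which 2 had an unadjusted p under 0.05, and DESeq2 called 0 members. With run as a block 0.628% of all genes were higher and 1.18% lower, and of the members *Atf3* alone passed (0.72, edgeR adjusted p = 0.041). Leaving out any 1 run, run 3 with its low mitochondrial share included, 0 members were called, and the RFP- sum of run 1 held only 10 cells.

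The AP and VP were compared in RFP+ basal-like and RFP- luminal-like cells, which share their AP sums with the comparisons of the RFP gates above. In RFP+ basal-like cells *Atf3* was at 2969, 2861 and 3265 CPM in the AP and 1833, 2025 and 2240 CPM in the VP. *Atf3* did not overlap between lobes. *Fos* was at 2320, 678 and 1068 CPM in the AP and 1892, 1150 and 2800 CPM in the VP, with wide overlap. By edgeR 0.102% of the 7810 genes were higher in the AP and 0.269% lower, 0 members were called, 1 member had an unadjusted p under 0.05, and DESeq2 called 0 members. With run as a block 3.52% of all genes were higher in the AP and 3.15% lower. In that fit *Junb* (0.45, edgeR adjusted p = 0.0102) and *Atf3* (0.58, 5.99e-05) were higher in the AP, and *Fos* (-0.62, 0.0141) and *Fosb* (-0.39, 0.0231) were lower. The 4 smooth muscle markers summed to 7.65 to 43.4 CPM in the AP and 41.6 to 259 CPM in the VP, and their part in these values was not tested.

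In RFP- luminal-like cells *Egr1* was higher and *Atf3* lower in the AP, so 1 of 10 members was called each way, near the 7.56% of 7288 genes that were higher and the 7.96% that were lower. The lobes held different kinds of these cells. AP cells were mostly Lum-B, as given above, and of the VP cells of runs 1, 2 and 3 5 of 10, 45 of 66 and 28 of 45 were Lum-A and 3, 20 and 15 were Lum-C. *Egr1* was at 370, 398 and 661 CPM in the AP and 205, 209 and 228 CPM in the VP (log2 fold change 1.15 ± 0.27, n = 3 runs; edgeR adjusted p = 0.0168). *Atf3* was at 579, 522 and 390 CPM in the AP and 909, 1152 and 1073 CPM in the VP (-1.07 ± 0.26, edgeR adjusted p = 0.0200). Neither gene overlapped between lobes, and the share of all genes without overlap was not counted. The 6 endothelial markers summed to 26.3 to 41.8 CPM in the AP and 0 to 1.94 CPM in the VP, the 7 basal markers to 350 to 802 against 22.8 to 267 CPM and the 13 luminal markers to 50416 to 150413 against 465763 to 482984 CPM, and the part of these in the result was not tested. *Junb* (-0.84, edgeR adjusted p = 0.0605) and *Zfp36* (-0.64, 0.0592) were just short of the threshold, and both passed with run as a block (0.0276 and 0.0387), where 8.53% of all genes were higher and 9.76% lower. These calls depended on scaling: with total UMIs as library sizes the median of all genes moved by 1.02 on the log2 scale, 66.4% of all genes were higher and 2.51% lower, 4 members (*Fos*, *Fosb*, *Jun* and *Egr1*) were higher in the AP, 0 were lower, and *Atf3* was at -0.05. Without run 2 or without run 3, 0 members were called, and the shares of all genes in those fits are not given here.

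Castrated and intact mice were compared within run 2, where each treatment was a single pool per lobe and gate, so there is no replicate check and no test. Ratios are of CPM, with exact 95% intervals that cover counting error only, and members past 2-fold were counted beside all genes with at least 10 UMIs.

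The clearest values were those of VP RFP+ luminal-like cells, in which 9 of 10 members were more than 2-fold higher after castration (126 castrated and 183 intact cells). *Nr4a1* was at 494 CPM after castration and 51.5 CPM in intact mice, a ratio of 9.59 (8.60 to 10.7). *Egr1* was at 771 against 161 CPM (4.79), *Zfp36* at 254 against 62.0 CPM (4.10) and *Junb* at 1803 against 488 CPM (3.69). *Fos* (3.14), *Ier2* (2.93), *Atf3* (2.73), *Fosb* (2.51) and *Jun* (2.19) were also past 2-fold, and *Dusp1* was at 1.95. These ratios stand on a broad shift: 44.3% of 10844 genes were past 2-fold higher and 3.52% lower, the median log2 ratio of all genes was 0.91 against 1.60 for the members, and 13 of 13 heat shock genes were past 2-fold higher. The cells also differed in kind, 171 of the 183 intact cells being Lum-A and 106 of the 126 castrated cells being of the unnamed luminal cluster. That cluster had the Lum-F marker *Crym* among its leading genes. With library sizes that leave out the 50 most abundant genes, 3 members were past 2-fold, *Nr4a1* (log2 ratio 2.28), *Egr1* (1.28) and *Zfp36* (1.05). The share of all genes past 2-fold was not computed with that scaling, so this count has no share to stand against.

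AP RFP- luminal-like cells (49 castrated, 149 intact) had 4 members past 2-fold higher, where 7.01% of 10079 genes were past 2-fold higher and 17% lower. *Atf3* was at 1863 against 680 CPM (ratio 2.74, 2.58 to 2.92), *Nr4a1* at 202 against 76.8 CPM (2.63, 2.17 to 3.18), *Junb* at 1077 against 478 CPM (2.25, 2.08 to 2.44) and *Zfp36* at 114 against 50.4 CPM (2.25, 1.76 to 2.88). *Fos* was at 455 against 581 CPM (0.783), so the AP-1 subunits did not move as a block. Of the castrated cells 36 were Lum-E, and of the intact cells 121 were Lum-B. Of 37 further immediate early and AP-1 genes, a list chosen with earlier results of these data known, 20 were past 2-fold higher and 1 lower.

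In AP RFP+ luminal-like cells (192 castrated, of which 159 were Lum-E, and 100 intact, of which 81 were Lum-D) 0 members were past 2-fold, where 11% of all genes were higher and 9.85% lower, and the ends were *Zfp36* at 1.63 and *Dusp1* at 0.532, with *Fos* at 554 against 980 CPM (0.565). In AP RFP+ basal-like cells (157 castrated, 120 intact) 2 of 10 members were past 2-fold lower, near the 14.5% of all genes, with 3.63% higher. There *Atf3* was at 1335 against 2833 CPM (0.471, 0.445 to 0.499) and *Nr4a1* at 218 against 474 CPM (0.459, 0.398 to 0.529). This count fell to 0 with library sizes that leave out the 50 most abundant genes, and to 1 with cells under 7500 UMIs or with the listed genes kept among clustering features. The share of all genes was not computed in those settings. In VP RFP+ basal-like cells (80 and 80 cells) 0 members were past 2-fold, where 5.67% of all genes were higher and 17.6% lower. The ratios ran from 0.570 for *Nr4a1* to 1.29 for *Junb*. In DLP RFP- luminal-like cells (21 castrated, of which 13 were Lum-E, and 66 intact, of which 36 were Lum-B) 0 were past 2-fold, where 3.65% of all genes were higher and 19.7% lower, and the ratios ran from 0.50 for *Fos* to 1.74 for *Atf3*.

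**Figure D3:**
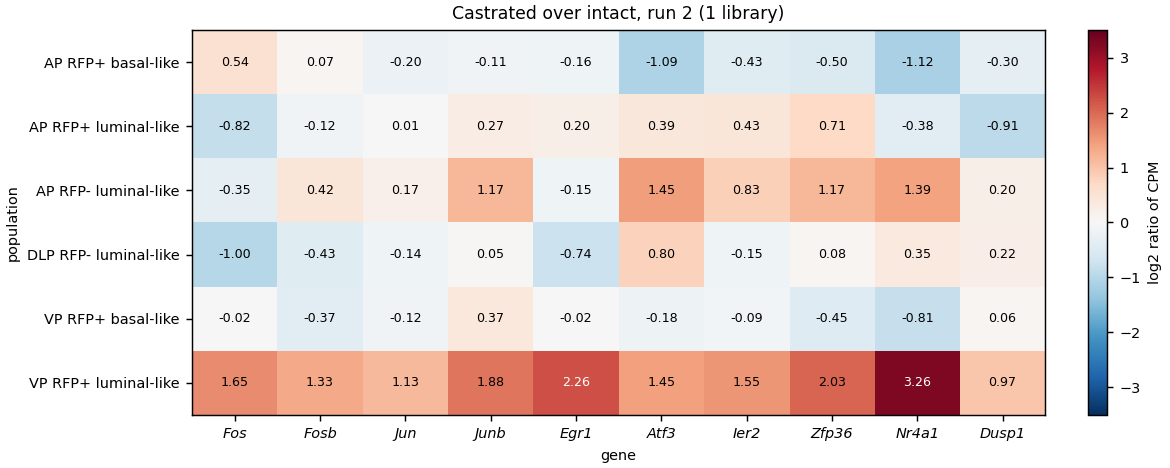
Log2 ratio of CPM in castrated over intact cells of run 2, as a colour and a printed value, for the 10 genes (columns) in 6 populations (rows). The VP RFP+ luminal-like row is red throughout, from 0.97 for *Dusp1* to 3.26 for *Nr4a1*, and *Atf3* (-1.09) and *Nr4a1* (-1.12) are blue in AP RFP+ basal-like cells.

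In the explants, prostatic-like cells at days 0, 1, 3 and 6 (469, 476, 1046 and 2050 cells) came from 1 library, again without replicates. *Fosb* was at 122 CPM at day 0 and at 370, 371 and 298 CPM at days 1, 3 and 6, which is 3.02, 3.04 and 2.44 times the level of day 0. *Jun* went the other way, from 3070 CPM at day 0 to 2542, 1841 and 1045 CPM (0.828, 0.600 and 0.340 times). *Fosb* was the only member past 2-fold at days 1 and 3, and at day 6 *Fosb* was past 2-fold higher and *Jun* lower. Of all genes 5.06% were past 2-fold higher and 4.64% lower at day 1, 7.24% and 9.73% at day 3, and 9.22% and 12.4% at day 6.

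*Fos* itself was at 1738, 2508, 2429 and 1585 CPM and so returned at day 6 to near its level of day 0. *Ier2* was at 0.883, 0.741 and 0.640 times day 0, and *Egr1* at 1.03, 0.847 and 0.776 times. *Junb* stayed between 1.06 and 1.13 times day 0. Of the brakes, *Zfp36* was at 1.33, 1.46 and 1.16 times and *Dusp1* at 1.31, 1.29 and 0.928 times. *Atf3* was at 2037, 2776, 1958 and 1479 CPM and *Nr4a1* between 110 and 142 CPM. Of 13 heat shock genes, 1, 4 and 7 were past 2-fold lower at days 1, 3 and 6, with median log2 ratios of -0.42, -0.89 and -1.09.

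Other explant cells gave their own levels. In mesonephric-like cells *Fosb* was at 186, 419, 399 and 368 CPM at days 0, 1, 3 and 6, which is 2.25, 2.14 and 1.97 times the level of day 0. *Jun* was at 3042, 1994, 1840 and 1700 CPM there (0.655, 0.605 and 0.559 times), so it stayed within 2-fold of day 0. *Egr1* was at 0.603, 0.490 and 0.444 times day 0 in these cells. In urothelium-like cells *Jun* stayed between 2781 and 3093 CPM at days 1, 3 and 6. The highest *Fos* level of any explant population was 8234 CPM, in 24 mesenchyme-like cells of day 3.

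**Figure D4:**
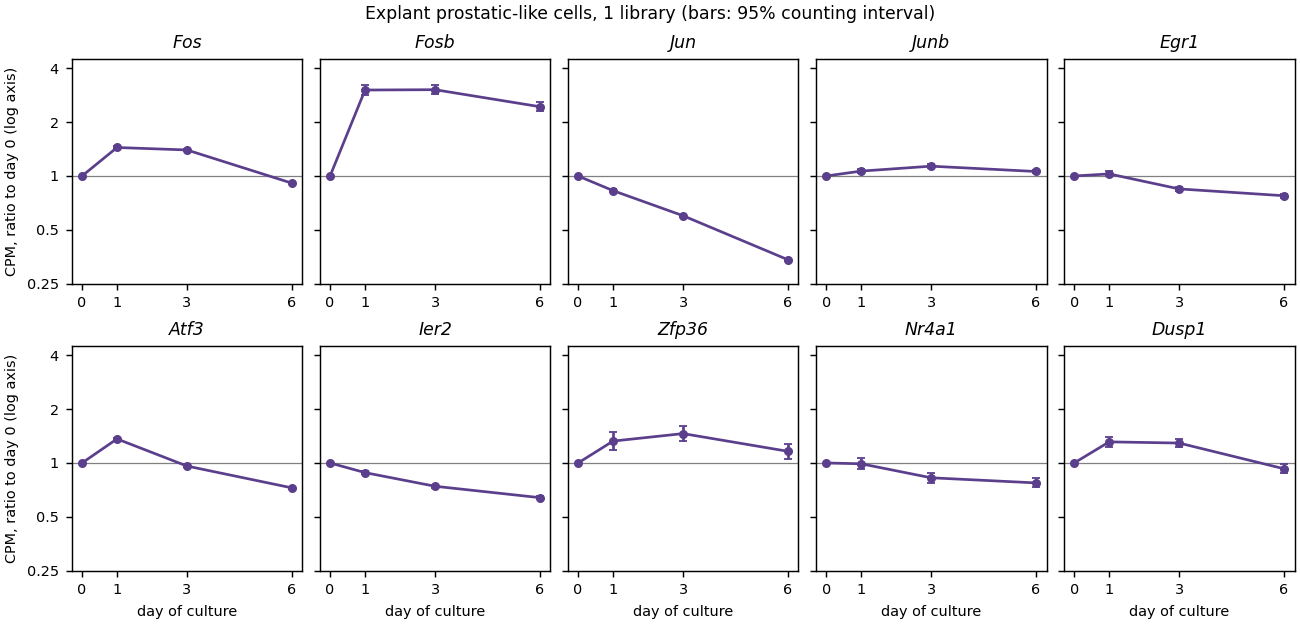
Ratio of CPM to day 0 (log axis) of the 10 genes in prostatic-like explant cells at days 0, 1, 3 and 6 of culture, from 1 library, with 95% counting intervals. *Fosb* lies above 2 at every later day and *Jun* falls to 0.340.

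Single cells were described after thinning each cell to 5000 UMIs, which left out 19 to 63 cells per run and compartment. These genes are expressed in every cell type of the libraries, so no type gives a background for free RNA. Basal-like cells held a UMI of a median of 9, 8 and 8 of the 10 members in runs 1, 2 and 3, and luminal-like cells of 8, 6 and 6. All 10 members were present in 41.2%, 10.1% and 8.88% of basal-like and 18.4%, 2.86% and 2.61% of luminal-like cells. None was present in 0, 1 and 0 basal-like cells and in 4, 27 and 46 luminal-like cells. Thinning made total UMIs equal, while the 50 most abundant genes took a larger share of them in luminal-like cells. In an alternative added after the data were seen, cells were therefore thinned to 2500 UMIs outside those 50 genes. A UMI of no member was then found in 0 of 275 (exact 95% upper bound 1.33%, for counting error only), 1 of 355 and 2 of 974 basal-like cells and in 5 of 360, 28 of 546 and 50 of 469 luminal-like cells.

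Luminal-like cells with few members were unevenly spread over populations. At most 2 members were found in 9, 92 and 107 thinned luminal-like cells of runs 1, 2 and 3. In run 3 they made up 31 of 39 VP RFP- cells and 18 of 126 AP RFP+ cells. In run 2 they made up 19 of 65 VP RFP- cells, 35 of 181 VP RFP+ cells and 4 of 89 AP RFP+ cells. The run 3 cells with at most 2 members had a median of 15190 UMIs and a mitochondrial share of 1.66%, against 26913 UMIs and 2.62% in the others. In run 1 they had 11282 UMIs and 2.65%, against 17773 UMIs and 3.44%. Run 2 went the other way in both, with 32178 UMIs and 2.91% against 27902 UMIs and 2.78%. The VP RFP- sum of run 3 therefore stands apart, and the part of its cells in the comparisons that use it was not tested beyond leaving run 3 out.

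*Nr4a1* had a UMI in 90.6%, 79.8% and 66.0% of thinned basal-like cells and in 53.3%, 33.0% and 26.4% of thinned luminal-like cells. Without thinning these shares were 93.6%, 85.5% and 78.1% against 78.0%, 62.9% and 48.9%. *Fos* was present in 99.2%, 73.7% and 75.8% of thinned basal-like and 92.6%, 59.6% and 64.9% of thinned luminal-like cells, and without thinning in 99.6%, 81.5% and 83.6% against 95.7%, 77.5% and 71.3%. The higher share of *Fos* in basal-like cells goes against its normalised level in runs 2 and 3, so no order is read from it.

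Luminal-like cells tended to have these mRNAs together. In luminal-like cells with a *Fos* UMI *Jun* was found in 98.2%, 91.1% and 91.9% of cells of runs 1, 2 and 3, and in those without in 61.5%, 59.9% and 42.2%. In basal-like cells of runs 2 and 3 *Jun* was found in 95.9% and 94.8% of cells with a *Fos* UMI and in 94.2% and 85.4% of those without, and in run 1 only 2 basal-like cells lacked *Fos*. *Junb* was found in 88.7%, 84.3% and 87.2% of luminal-like cells with and 57.7%, 57.1% and 38.5% of those without a *Fos* UMI. The gap was wider in luminal-like than in basal-like cells within runs 2 and 3. Nearly all basal-like cells had *Jun*, and luminal-like cells span several lobes, gates and clusters. The 50 most abundant genes of a sum took 69.2% to 69.9% of UMIs in intact Lum-A cells and 26.3% to 32.7% in intact Lum-D cells. These shares were not repeated with thinning outside such genes, and the part of composition in them was not tested.

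**Figure D5:**
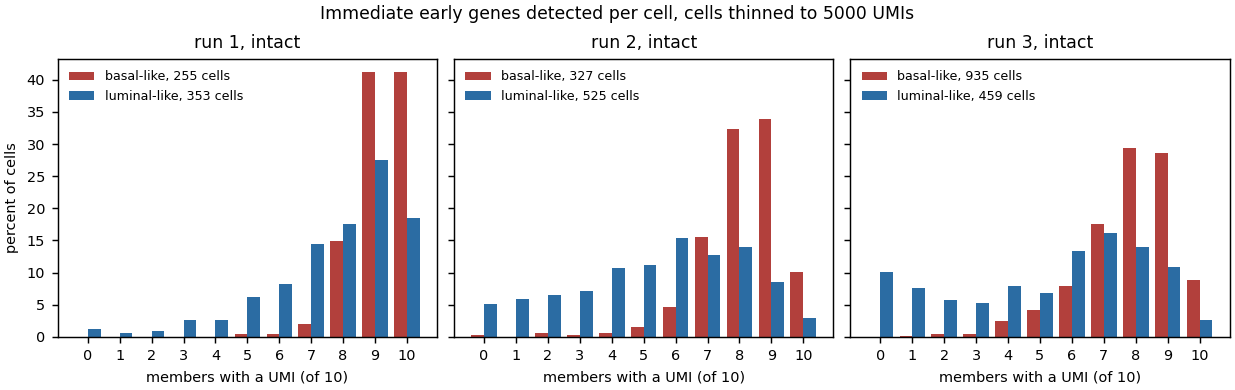
Share of cells (percent) by the number of the 10 genes with at least 1 UMI after thinning to 5000 UMIs, for basal-like and luminal-like cells of the 3 intact runs. Basal-like cells mostly hold 9 or 10 genes in run 1 and 8 or 9 in runs 2 and 3. Luminal-like cells extend down to 0 in every run, with 1.13%, 5.14% and 10.0% of cells at 0 in runs 1, 2 and 3.

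Likeness was described across 40 adult sums per run, population and compartment. The correlation of each gene's log2 CPM with the mean of the 10 members was highest among members for *Zfp36* (Pearson's r = 0.946) and lowest for *Dusp1* (0.695), with *Atf3* at 0.840 and *Fos* at 0.781. The mean includes the gene itself. By this r 7 members ranked among the first 9 of 2312 genes, but *Atf3* ranked 125, *Fos* 398 and *Dusp1* 847. Between pairs of members r ran from 0.439 for *Dusp1* and *Nr4a1* to 0.966 for *Zfp36* and *Junb*. Of the other genes compared, the 10 most like the members were *Jund* (0.954), *Cirbp* (0.923), *Cct4*, *Cuedc1*, *Nfix*, *H3f3b*, *Tprgl*, *Polr2m*, *Atp5a1* and *2010111I01Rik* (0.893). *Jund* encodes a JUN subunit of AP-1. Of 28 further immediate early genes 2, and of 13 heat shock genes 0, were among the 50 other genes most like the members. These 50 were drawn from the 2312 genes compared, a number that includes the members. The sums share libraries and differ in depth and in the share taken by secretory mRNAs, so these values are a description with no p.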

How the data were processed

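Droplet-based scRNA-seq with MULTI-seq sample barcodes was performed on 3 adult runs, which are the replicates (separate pools of mice), and 1 explant library. The authors aligned reads to mm10 (GRCm38) with Cell Ranger 3.1.0, and the deposited matrices hold raw UMI counts per gene and cell. The total per library was 35051876, 86381807, 40087244 and 121090404 UMIs for runs 1, 2 and 3 and the explants. Adult cells with more than 750 and fewer than 7500 genes and under 10% mitochondrial UMIs, and explant cells with more than 1000 genes and under 7.5%, were kept. The limit of 7500, which the methods give for UMIs, was taken as genes, and UMIs as an alternative. Samples were assigned with the barcode thresholds of the study. Cells with several barcodes were removed as doublets, and no doublet caller was run.

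Cells were clustered with Seurat 5.3.0 (R 4.3.3) without the members, the other immediate early genes and the heat shock genes, and clusters were named from the marker genes of the study by a rule set after the clusters were seen. Counts were summed per run, population and compartment (at least 10 cells) and tested with edgeR 4.0.16 (TMM, filterByExpr, quasi-likelihood test, Benjamini-Hochberg adjustment over all genes, threshold 0.05). All 10 members passed the filter in every test. Standard errors were taken from the fold change (log2) and the F statistic, as the former over the square root of the latter. DESeq2 1.42.0, run as a block, other limits and scalings were alternatives, and total UMIs as library sizes, the fits' shares of all genes under alternatives, the counts of cells with at most 2 members and thinning outside the 50 most abundant genes were added after the data were seen. On simulated data edgeR recovered 83.6% to 96.3% of 4-fold and 17.9% to 33.3% of 2-fold changes in the comparisons of groups (48.5% and 7.45% for the interaction).

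Sorted populations of 1 run share its mice. Deviations of the same-run sums about their group means had correlations of 0.271 to 0.670, except for RFP- luminal-like AP and VP cells (0.309, 0.0305 and 0.188). Members and gene lists were chosen with earlier results of these data known. The 10 members are always named, from the further immediate early and the heat shock lists at most 3 genes by smallest p, and EGF receptor ligands and genes of 5 or fewer calls after their values were seen.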

Additional observations from a re-analysis of the deposited data

Results flagged for a closer look

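Between luminal-like and basal-like cells of the intact AP, the RFP+ against RFP- difference of *Atf3* differed by 1.29 on the log2 scale and that of *Nr4a1* by 1.46, by the interaction term given above (edgeR adjusted p = 0.0339 and 0.0467). The luminal-like and basal-like sums of a run share mice and library, and the luminal-like gates held different clusters.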

How the results depend on the processing

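The count of members higher in basal-like cells was 7, and lower 1, with run as a replicate block, and ranged from 1 to 6 when 1 run was left out. For AP luminal-like RFP+ against RFP- cells the count higher ranged from 1 to 6 when 1 run was left out. The shares of all genes called in the fits that leave out 1 run are not set beside these counts. The replicate block gave 1 higher for VP luminal-like cells and 2 higher and 2 lower for RFP+ basal-like AP against VP cells. For RFP- luminal-like AP against VP cells the counts higher and lower each ranged from 0 to 1 when 1 run was left out and were 0 after thinning to 5000 UMIs. With total UMIs as library sizes they were 4 and 0. The count lower was 2 with DESeq2, with at least 20 cells per sum and with the listed genes kept among clustering features, and 3 with the replicate block. The interaction count was 6 with the replicate block, 1 without the 50 most abundant genes, with cells under 7500 UMIs, with mitochondrial share under 5% and after thinning, 0 with listed genes kept or total UMIs, and 0 to 1 when 1 run was left out. The block changed no other count of members by over 1.5 times. Shares of all genes in these settings are given only where stated above. The other counts are not read as results about the members.

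For castration, members past 2-fold lower in AP RFP+ basal-like cells numbered 0 without the 50 most abundant genes, and 1 with cells under 7500 UMIs or listed genes kept. In AP RFP+ luminal-like cells 1 was higher with cells under 7500 UMIs, and 1 was lower without the 50 most abundant genes or with mitochondrial share under 5%, and 2 with cells under 7500 UMIs or thinned. In AP RFP- luminal-like cells 1 was lower after thinning. In DLP RFP- luminal-like cells 1 was higher without the 50 most abundant genes and 2 after thinning, and 1 was lower with mitochondrial share under 5% and 2 after thinning. In VP RFP+ luminal-like cells 3 were higher without the 50 most abundant genes. The share of all genes past 2-fold was not computed in these settings, and the cause of these changes was not tested.

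Over all genes, the count called moved from 5501 to between 1606 (cells under 7500 UMIs) and 6840 (block) for basal-like against luminal-like cells, and from 2178 to between 286 (cells under 7500 UMIs) and 3160 (block) for AP luminal-like gates. It moved from 0 to at most 43 for AP basal-like gates, from 23 to between 0 (without run 2) and 198 (no low-count filter) for VP luminal-like gates, and from 29 to between 0 (without run 2) and 521 (block) for RFP+ basal-like lobes. For RFP- luminal-like lobes it moved from 1131 to between 217 (thinned) and 5023 (total UMIs), and for the interaction from 635 to between 0 (without run 2) and 1614 (block). Cells under 7500 UMIs were too few for VP luminal-like gates, for RFP- luminal-like lobes and for castration in AP RFP-, DLP RFP- and VP RFP+ luminal-like cells, so no value was had there.

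Log2 differences of single members changed sign in 52 cases, all with edgeR or DESeq2 adjusted p over 0.05 in both settings. Leaving out 1 run in turn, they ranged for *Jun* from -0.13 to 0.70 (compartments), *Jun* from -0.10 to 0.11, *Egr1* from -0.16 to 0.34 (AP luminal-like gates), *Jun* from -0.095 to 0.071, *Egr1* from -0.022 to 0.10, *Nr4a1* from -0.13 to 0.0078 (AP basal-like gates), *Fosb* from -0.064 to 0.80, *Nr4a1* from -0.31 to 0.30 (VP luminal-like gates), *Jun* from -0.42 to 0.20, *Egr1* from -0.29 to 0.42 (RFP+ basal-like lobes), *Fos* from -0.015 to 0.41, *Jun* from -0.038 to 0.23, *Dusp1* from -0.93 to 0.10 (RFP- luminal-like lobes) and *Jun* from -0.048 to 0.024, *Egr1* from -0.19 to 0.22, *Ier2* from -0.024 to 0.48 (interaction). With DESeq2 they were *Jun* 0.0094 (interaction). Without the low-count filter they were *Jun* 0.036 (AP basal-like gates), *Jun* 0.037 (RFP+ basal-like lobes) and *Egr1* -0.015 (interaction). Without the 50 most abundant genes they were *Jun* 0.018 (AP basal-like gates), *Nr4a1* 0.070 (VP luminal-like gates) and *Jun* 0.12 (interaction). With the replicate block they were *Egr1* -0.026 (interaction). With cells under 7500 UMIs they were *Fos* 0.14 (compartments), *Jun* -0.15 (AP luminal-like gates), *Jun* 0.25, *Atf3* 0.012, *Zfp36* 0.069 (AP basal-like gates) and *Jun* 0.020, *Zfp36* -0.032 (RFP+ basal-like lobes). With mitochondrial share under 5% they were *Jun* 0.0014, *Egr1* -0.019 (interaction). With listed genes kept among clustering features they were *Jun* -0.0057 (AP luminal-like gates), *Jun* 0.0076 (AP basal-like gates) and *Egr1* -0.045 (interaction). After thinning they were *Jun* 0.043 (AP basal-like gates), *Fos* -0.000074, *Nr4a1* 0.068 (VP luminal-like gates) and *Fos* -0.18, *Jun* -0.091 (RFP- luminal-like lobes). With total UMIs as library sizes they were *Fos* 0.39, *Dusp1* 0.12 (compartments), *Jun* 0.020 (AP basal-like gates), *Junb* 0.17, *Ier2* 0.65, *Zfp36* 0.37, *Nr4a1* 0.57, *Dusp1* 0.53 (RFP- luminal-like lobes) and *Jun* 0.16 (interaction). With VP cells only they were *Fos* 0.24, *Atf3* -0.092 (compartments).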
